A study of Mus musculus with 5 samples.

Results

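The clustered protocadherins are the protein-coding genes of mouse chromosome 18 whose symbols start with Pcdha, Pcdhb or Pcdhg, and NEUROD2 binding was examined over them and over 50 kb on either side, which is chr18:36880184-37891873 of the mm10 build (1012 kb). By symbol and position alone, 57 of the 21938 protein-coding genes of GENCODE release M21 were members, of which 14 belonged to the alpha subcluster, 22 to the beta subcluster and 21 to the gamma subcluster. The symbol Pcdha11 was carried by 2 gene models, and both were counted. Of all the peaks listed, 14 of 51841 for ab1 (0.0270%), 13 of 35310 for ab2 (0.0368%) and 2 of 7470 for ab3 (0.0268%) had their midpoint in this window.

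NEUROD2, a basic helix loop helix transcription factor of cortical excitatory neurons, was precipitated from the cerebral cortex of BALB/c embryos at E14.5. The mouse antibody ab1 and the rabbit antibodies ab2 and ab3 gave 1 library each, from chromatin pooled over the embryos of several females, and GFP antibodies of the same host species gave the control libraries for peak calling. All libraries are of a single condition, so there are no groups to compare and no test between conditions can be made, and no antibody has a biological replicate. Since ab2 and ab3 were called against the same control library, their peak lists are not fully independent. The lists give each peak's position and score, where the score is 10 times the −log10 of the p-value of the peak caller and is not scaled between libraries. The peak lists hold no read counts, so a missing peak says only that none passed the threshold of the caller.

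Clustered protocadherins are cell adhesion proteins that bind their own kind across cell contacts. Each alpha and gamma gene begins with its own promoter and a large variable exon, which is spliced to constant exons shared by the whole subcluster, whereas each beta gene stands alone without constant exons. Neurons choose among the alternate promoters, largely at random and with the help of CTCF and cohesin, so that neighbouring cells carry different sets of these proteins and the branches of a neuron can avoid each other. The C-type genes Pcdhac1, Pcdhac2, Pcdhgc3, Pcdhgc4 and Pcdhgc5, which lie at the ends of the alpha and gamma arrays, are the exception, and several of them are expressed in most neurons of a given type. Enhancers of the alpha genes are known in the last constant intron and beyond the end of that subcluster, and a control region of the beta and gamma genes is known beyond the end of the gamma genes. The positions of these elements were not used here, and the regions described below were not matched to them. No sequence of the members is shown, although the sequence of the reference genome was used for the counts below.

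Peaks of NEUROD2 lay from Pcdhac1 to just beyond the alpha genes and from the last gamma genes into Diaph1, and the alternate alpha genes, the beta genes and the alternate gamma genes had none at their TSSs. Peaks of different antibodies that shared at least 1 bp were joined into regions, and a region counted only where 2 or more antibodies had contributed. This gave 13 regions in the window, numbered here from 1 to 13 along the chromosome, of 32261 in the genome. From the alpha genes to the end of the window, 4 regions lay in the alpha subcluster, 1 between alpha and beta, 3 in the gamma subcluster and 5 in the 50 kb after it. The 22 beta genes, the stretch between beta and gamma and the 50 kb before Pcdha1 held 0 peaks of any antibody. All 13 peaks of ab2 and both peaks of ab3 fell in a region, and so did 13 of the 14 peaks of ab1. The remaining peak of ab1, with a score of 80.8, lay 6010 bp downstream of the Pcdhac2 TSS.

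**Figure D1:**
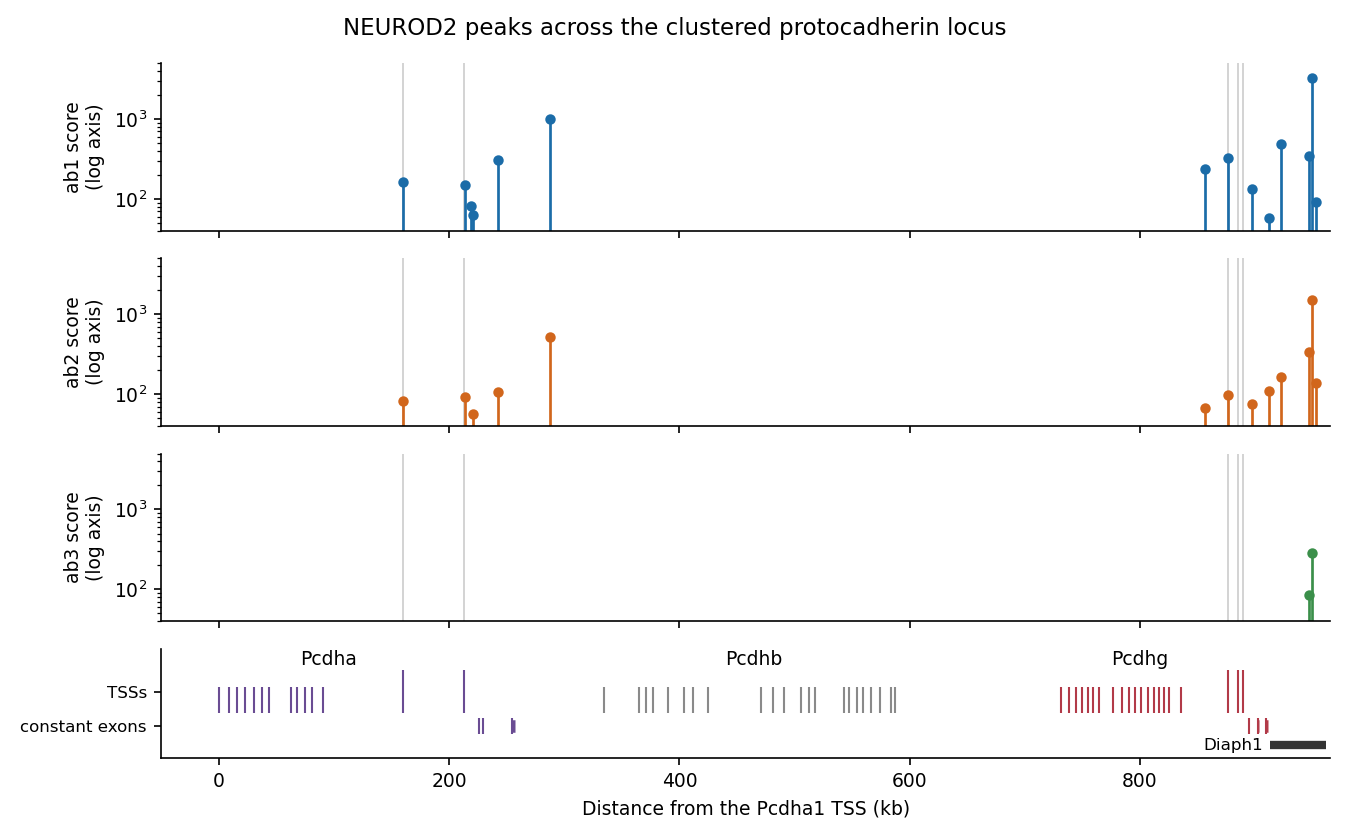
Peaks of ab1, ab2 and ab3 across the window, with the distance from the Pcdha1 TSS in kb on the horizontal axis and the peak score on a log axis, 1 panel per antibody. The lowest panel marks the TSSs of the 57 members (tall ticks and grey lines for the C-type genes), the constant exons and the part of Diaph1 inside the window; peaks lie over the right part of the alpha array, just beyond it, and from the last gamma genes into Diaph1, with none over the beta genes.

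Only C-type genes, 3 of the 5, had a NEUROD2 peak within 1000 bp of the TSS. Peaks of ab1 marked 3 of the 57 members and peaks of ab2 marked the same 3, namely Pcdhac1, Pcdhac2 and Pcdhgc3, while ab3 marked 0 of 57. Over all protein-coding genes, a peak at the TSS was found at 35.3% with ab1, at 22.7% with ab2 and at 1.61% with ab3, and a region of at least 2 antibodies stood at 20.8% of TSSs, against 5.26% of the members (95% Wilson interval 1.81 to 14.4%, counting error only). Of the 5 C-type genes 3 had a region at the TSS (60%, interval 23.1 to 88.2%), and of the 52 alternate genes 0 had one (interval up to 6.88%). The alternate genes without one were 12 alpha, 22 beta and 18 gamma genes. These intervals treat genes as separate, although the members lie side by side and overlap. The calls rest on ab1 and ab2 together. Since ab3 marked 0 members and a region needs 2 antibodies, leaving out either ab1 or ab2 gives 0 members by the rule itself. With peaks of ab2 held to a score of at least 100 the count for ab2 fell to 0.

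The TSS of Pcdhac1, at position 37090013 of chromosome 18, lay 81 bp from the midpoint of region 1 (chr18:37089629-37090559), which had a score of 163 for ab1 and 81.5 for ab2. The TSS of Pcdhac2, at 37143503, lay 549 bp before the midpoint of region 2 (chr18:37143270-37144835), with a score of 147 for ab1 and 91.4 for ab2. The TSS of Pcdhgc3, the first C-type gene of the gamma array, at 37806410, lay 314 bp before the midpoint of region 7 (chr18:37805894-37807555), with a score of 327 for ab1 and 98.5 for ab2. All 3 midpoints were thus downstream of the TSS and inside the variable exon, and ab3 had no peak at any of them. In ab1, 53.1% of all peaks had a lower score than the peak at Pcdhac1, 49.5% than that at Pcdhac2 and 72.1% than that at Pcdhgc3. In ab2 these shares were 30.0%, 35.9% and 39.3%, so the C-type promoters had middling scores in ab1 and scores below the median in ab2. Set beside the 4101 regions at TSSs of protein-coding genes, the peak of ab1 at Pcdhgc3 exceeded 62.3% of the ab1 scores, whereas those at Pcdhac1 and Pcdhac2 exceeded 34.1% and 30.2%. In ab2 the corresponding shares were 37.3% at Pcdhgc3, 26.8% at Pcdhac1 and 33.9% at Pcdhac2, which lay closer together than in ab1. An antisense transcript, BC037039, covers the same stretch as region 7 and starts 1198 bp downstream of its midpoint, so a peak of either transcription unit cannot be told apart there.

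The other C-type genes, Pcdhgc4 and Pcdhgc5, did not have a peak within 1000 bp. The TSS of Pcdhgc4 (37815079) was 8355 bp from region 7 upstream of it, and the TSS of Pcdhgc5 (37819513) was 8472 bp from region 8 downstream of it. Both were nonetheless closer to a region than any alternate gene was.

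Distances to the nearest region followed the order of the genes along the chromosome. Over the alternate alpha genes the distance ran from 145200 bp at Pcdha2 to 69945 bp at Pcdha12, with 136179 bp at Pcdha1, where the nearest region lay upstream of the locus. Over the beta genes it ran from 47166 bp at Pcdhb1, which stands apart from the rest of its array, to 282518 bp at Pcdhb20, and it was 268911 bp at Pcdhb22, the last of them. Over the alternate gamma genes it fell from 124989 bp at Pcdhga1 to 21202 bp at Pcdhga12. The median over the beta genes was 210748 bp, over the alternate alpha genes 119378 bp and over the alternate gamma genes 69216 bp, whereas the median over all protein-coding genes was 29200 bp. Of the 52 alternate genes only Pcdhga12 was closer than that median.

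**Figure D2:**
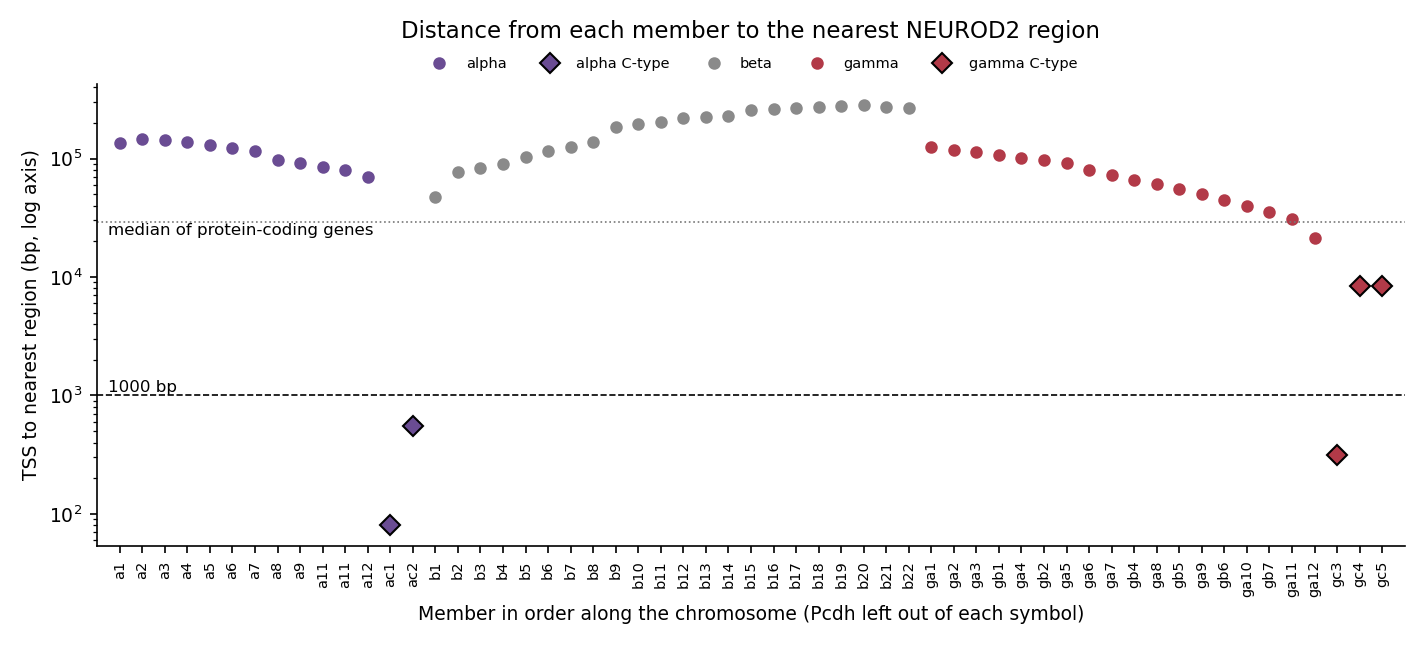
Distance in bp (log axis) from the TSS of each of the 57 members, in order along the chromosome, to the midpoint of the nearest region of at least 2 antibodies. Diamonds are C-type genes, the dashed line is 1000 bp and the dotted line the median of all protein-coding genes (29200 bp); 3 diamonds lie under the dashed line, and of the circles only the last gamma gene lies under the dotted one.

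The stretch without a peak of any antibody ran from 37218563 to 37786545, which is 568 kb, and it held the TSSs of 40 members, all 22 beta genes and all 18 alternate gamma genes. It also held Slc25a2, a mitochondrial ornithine carrier gene, and Taf7, which encodes a subunit of the general transcription factor TFIID, and neither had a peak at its TSS. Among the 53810 stretches between neighbouring peaks of the genome, this one ranked 368th by length and 16th by the number of protein-coding TSSs, at 42. The stretch with the most held 234 TSSs on chromosome 2 and began with olfactory receptor genes, and the next held 176 and covered nearly all of chromosome Y. A second empty stretch of 295 kb ran from before the locus to Pcdhac1 and held the TSSs of the 12 alternate alpha genes. The alternate genes of all subclusters therefore lay in just 2 stretches without peaks.

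The density of peaks differed along the locus. At the mean density of the genome, 19.6 peaks of ab1 per Mb, the beta subcluster (260 kb) would hold 5.08 peaks of ab1, and it held 0. The alpha subcluster would hold 5.04 and held 5, and the gamma subcluster would hold 3.53 and held 3. The 50 kb after the last gamma gene would hold 0.979 and held 5, and ab2 had 5 peaks there as well. With 1 library per antibody these are counts in single libraries.

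Since the authors removed reads with several map positions, the sequence of the members was checked for how much of it can be read uniquely. Of the sequence words of 50 bases, the read length, in the 2001 bases around a TSS, the share that occurs once in the genome was 86.9 to 100% over the beta genes (median 100%), 82.1 to 96.3% over the alternate alpha genes (median 91.3%) and 88.2 to 100% over the alternate gamma genes (median 99.4%). In the C-type genes it was 100% for all 5, and the median over all protein-coding genes was also 100%. Over whole segments the unique share was 83.2% in the alpha subcluster, 87.6% in the beta subcluster, 73.7% between beta and gamma and 96.4% in the gamma subcluster, against 86.7% over the whole window. The part of unplaced reads in the empty stretches was not tested.

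Base composition of the promoters moved with these calls. In the 300 bases from 250 before to 50 after the TSS, the GC content was 30.7 to 49% over the alternate genes, and 60.7% at Pcdhac1, 52.3% at Pcdhac2, 63% at Pcdhgc3, 47.3% at Pcdhgc4 and 54.7% at Pcdhgc5. Over all protein-coding promoters its median was 55.7%. A region stood at the TSS of 5.16% of the 6882 protein-coding genes with a promoter GC content under 50% and of 27.9% of the 15056 genes at or above it. Of the members, 0 of the 53 below this level and 3 of the 4 above it had a region, the exception above it being Pcdhgc5. The level of 50% was chosen after the values had been seen, and the part of base composition in the absence of peaks was not tested.

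The 10 regions away from TSSs of members lay in introns or between genes. Because the alpha and gamma genes run on to their constant exons, a region lay inside 35 of the 57 members (61.4%, against 32.4% of all protein-coding genes), which were all 14 alpha and all 21 gamma genes and 0 of 22 beta genes, and the same few regions are counted for each of them. Regions 3 and 4 lay in introns of the alpha genes. Region 3 (chr18:37150403-37150909), 7153 bp downstream of the Pcdhac2 TSS, was weak, with scores of 62.2 for ab1 and 56.4 for ab2. Region 4 (chr18:37171982-37172819) lay in the intron before the last alpha constant exon, 13.05 kb after constant exon 2 and 12.5 kb before constant exon 3, with scores of 304 for ab1 and 105 for ab2. It stood 164 bp from the start of Gm38097, an antisense transcript within that intron. All 14 alpha genes span it, since all of them read through this intron to the constant exons.

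The strongest region among the protocadherin genes was region 5 (chr18:37216983-37218562), 30.1 kb beyond the end of the alpha genes and 47.2 kb before the Pcdhb1 TSS. Its score was 995 for ab1, above 90.4% of all ab1 peaks, and 519 for ab2, above 87.1% of all ab2 peaks, and ab3 had no peak there. No TSS of any annotated gene lay nearer to its midpoint than 39250 bp. It was the last region before the empty stretch over the beta genes.

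In the gamma subcluster, region 6 (chr18:37786546-37787019) ended that stretch. It lay between the variable exons of Pcdhga12 and Pcdhgc3, 19.6 kb before the Pcdhgc3 TSS, and its score was 236 for ab1 and 67.0 for ab2. Region 8 (chr18:37827646-37828325) lay in the first gamma constant intron, 2.91 kb after constant exon 1, with 133 for ab1 and 76.0 for ab2. Every gamma gene spans region 8. Region 9 (chr18:37841849-37843257) had its midpoint 0.680 kb past the end of the gamma genes and was the weakest of the locus in ab1, at 57.2, while ab2 gave 110.

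Regions 10 to 13 lay in introns of Diaph1, which encodes a formin that nucleates actin filaments and which is read towards the gamma genes. Region 12 (chr18:37879464-37880756), 38.2 kb beyond the end of the gamma genes and 55.4 kb from the Diaph1 TSS, was the strongest of the window for every antibody. Its peak scored 3211 in ab1, 1486 in ab2 and 285 in ab3, which ranked 11th of 51841, 840th of 35310 and 697th of 7470. The highest score of all peaks was 3233 in both ab1 and ab2. Whether this is a ceiling of the score was not tested, so the order of ab1 peaks near it may not be an order of strength. Region 11 (chr18:37876996-37877820) scored 343 in ab1, 334 in ab2 and 85.7 in ab3, and regions 11 and 12 regions were the only ones of the locus with all 3 antibodies (2 of 13, 15.4%, against 22.2% of all regions). Region 10 (chr18:37851858-37853225), 10.7 kb beyond the gamma genes, scored 481 for ab1 and 163 for ab2. Region 13 (chr18:37883365-37883818) scored 91.5 and 137. The TSS of Diaph1 itself, outside the window, also had a region, 125 bp downstream, so whether regions 10 to 13 belong to Diaph1 or to the protocadherins cannot be told from positions alone.

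**Figure D3:**
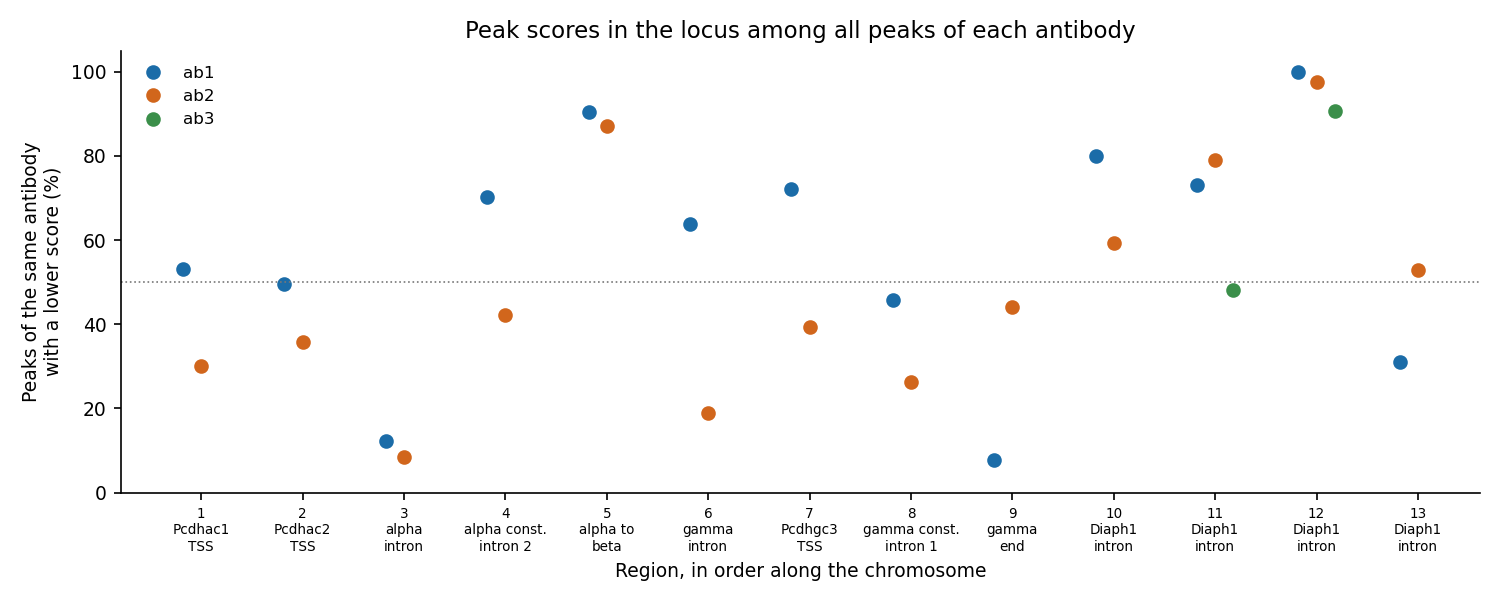
For each of the 13 regions, in order along the chromosome, the percent of all peaks of the same antibody that scored lower than the peak in that region, for ab1, ab2 and ab3 (points); the dotted line is 50%. Regions 5 and 12 are the only ones above 85% in both ab1 and ab2, the 3 C-type promoters lie between 49.5 and 72.1% in ab1 and between 30.0 and 39.3% in ab2, and ab3 has points at regions 11 and 12 alone.

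Because scores are not scaled between libraries, each was read within its own antibody. Of the 14 peaks of ab1 in the window 8 scored above the median of all ab1 peaks (149), and of the 13 peaks of ab2 5 did so (median 127). The median score in the window was 200 for ab1 and 105 for ab2. The order of the regions was broadly shared, with regions 12 and 5 first for both, but regions 9, 11 and 13 exceeded a larger share of the peaks in ab2 than in ab1. The widths in the window, with a median of 852 bp for ab1 and 818 bp for ab2, were somewhat above the medians of all peaks, 689 and 769 bp.

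NEUROD2 binds E-boxes, short sequences of the form CANNTG. The extended E-box searched here has the core CAGCTG, or the core CATATG, or CAGATG (which reads as CATCTG on the opposite strand), and a G or T directly after it. Both strands were searched, and every match is also a CANNTG. In the 200 bp around the midpoint 5 of the 13 regions held it (38.5%, 95% Wilson interval 17.7 to 64.5%), against 59.7% of all regions, and these were regions 3, 5, 6, 8 and 12. None of the 3 regions at C-type promoters held it there, while 5 of the other 10 did. Genome-wide, the share was 20.8% in regions at TSSs of protein-coding genes and 65.4% in the rest. In windows of 200 bp that began 1000 bp outside the ends of the regions, 4 of 13 held a match upstream and 0 of 13 downstream, against 22.3% in both positions over all regions.

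Over their whole length, 11 of the 13 regions held an extended E-box (84.6%, against 90.3% of all regions), and the exceptions were region 4 in the alpha constant intron and region 7 at Pcdhgc3. The 25 matches amounted to 1.84 per kb of region, against 1.06 per kb over the whole window and 2.30 per kb over all regions. The core CAGCTG made up 13 of the 25 matches (52%) and CAGATG, counted with its reverse form CATCTG, 9 of 25 (36%), whereas over all regions CAGATG led with 53.0% and CAGCTG made up 33.9%. Region 5 held the most matches of the locus, 5. At Pcdhac1 the 3 matches lay 104, 183 and 330 bp downstream of the midpoint of region 1, and region 12 held a CAGATG 64 bp from its midpoint. With 25 matches these shares are coarse, and a match is a description of the sequence, not a site of binding.

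**Figure D4:**
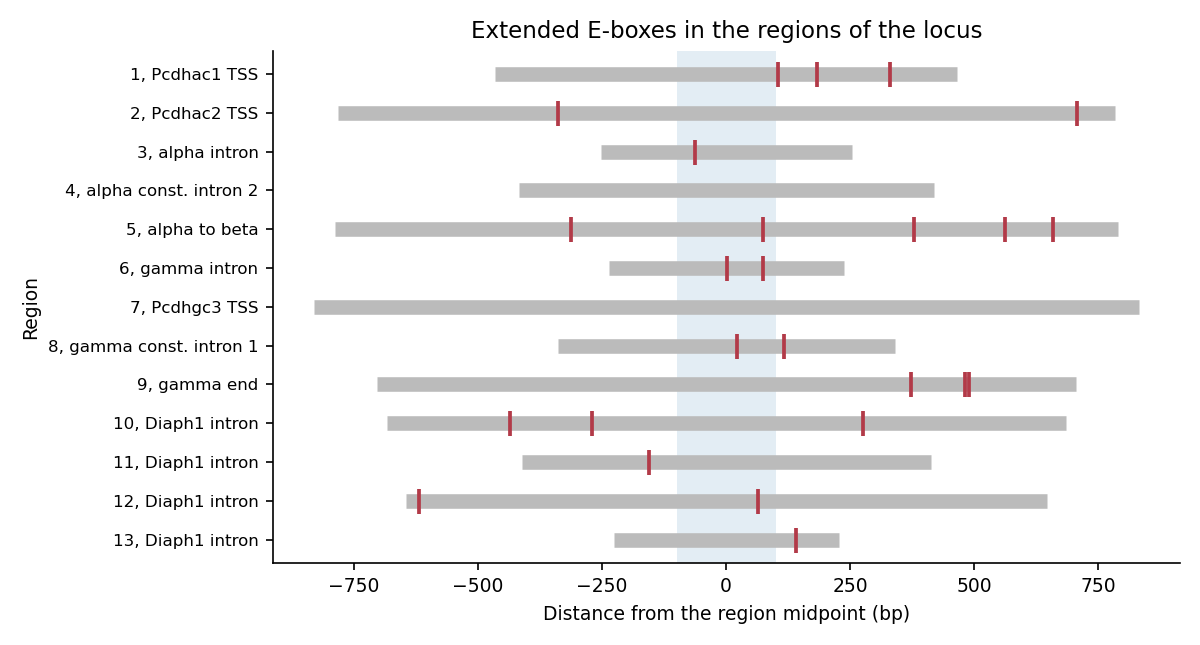
Each of the 13 regions drawn to scale as a grey bar, with the distance from its midpoint in bp on the horizontal axis; red ticks are extended E-boxes and the shaded band is the 200 bp around the midpoint. Ticks fall in the band in 5 regions, and regions 4 and 7 have none at all.

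None of the 3 members with a peak at the TSS held an extended E-box in its promoter. In the 300 bases around the TSS, 9 of the 57 members held an extended E-box (15.8%, against 23.6% of all protein-coding promoters), of which 7 were beta genes and 2 were gamma genes, and none of these 9 had a peak. No alpha gene and no C-type gene held one. CANNTG was present in 43 of the 57 (75.4%, against 69.3%). The letters AGGNGGC, the core of the motif of the insulator protein CTCF, were found on either strand in 6 of the 57 promoters (10.5%), against 32.7% of all. Among the C-type genes the promoters of Pcdhac1 and Pcdhgc5 held them. The search took this exact string alone, so it is not a count of CTCF sites. The median promoter GC content was 39.7% over the members and 55.7% over all protein-coding genes, and no share of AGGNGGC at matched GC content was computed.

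Genes that act with the clustered protocadherins were examined in the same way, in lists chosen by their known roles. The lists were also chosen with earlier results of these data known, so their shares are descriptions only. Of 12 non-clustered protocadherins, relatives that lie elsewhere in the genome, 3 had a region at the TSS (25%, against 20.8% of all protein-coding genes and 27.9% of those with a promoter GC content of at least 50%). The median promoter GC content of this list was 62.7%. The 3 genes were Pcdh9, with scores of 1016 for ab1 and 366 for ab2, Pcdh17, with 103 and 117, and Pcdh19, with 267 and 102. Pcdh9 also held 21 regions within the gene. In ab1 alone 8 of the 12 had a peak at the TSS (66.7%, against 35.3% of all protein-coding genes), and at 5 of these 8 neither rabbit antibody had one. The median promoter GC content of all protein-coding genes was 55.7%, below that of this list. No share of ab1 at matched GC content and no interval for ab1 were computed, so whether the list differs in ab1 was not tested.

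Of 12 regulators of promoter choice, 6 had a region at the TSS (50%, interval 25.4 to 74.6%), against 20.8% of all protein-coding genes. The median promoter GC content of this list was 66.2%, and 27.9% of the genes with a GC content of at least 50% had a region. The 6 genes were Ctcf (ab1 130, ab2 77.4), the cohesin subunit genes Rad21 (184, 204), Stag1 (1405, 638) and Stag2 (426, 61.4), the histone methyltransferase gene Setdb1 (60.5, 97.6) and the zinc finger gene Wiz (445, 72.5). The loading and release factors of cohesin, Nipbl and Wapl, and the silencing factor Smchd1 had a peak of ab1 only, and Smc1a, Smc3 and the DNA methyltransferase gene Dnmt3b had none at the TSS.

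Of 11 intracellular partners, kinases and members of the WAVE actin regulatory complex, 5 had a region at the TSS. The Src family kinase gene Fyn led, with 2092 in ab1, 1387 in ab2 and 176 in ab3 and with 17 regions within the gene, and Nckap1, a WAVE complex subunit, had 843, 605 and 68.1. Fyn and Nckap1 were the only genes of the 3 lists with a peak of ab3 at the TSS. The study had already named Fyn as a target from these same libraries, so its values here are not independent of that. Cyfip2 (236, 137), Abi1 (244, 246) and Abi2 (137, 84.3), all parts of the WAVE complex, had peaks of ab1 and ab2. The share with a region over this list was 45.5% (interval 21.3 to 72.0%), against 20.8% of all protein-coding genes. Of the genes with a promoter GC content of at least 50%, 27.9% had a region, and the median GC content of this list was 58.7%. The share with a peak of ab3 was 18.2%, which is only 2 of 11 genes, against 1.61% of all protein-coding genes. No share of ab3 at matched GC content was computed.

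**Figure D5:**
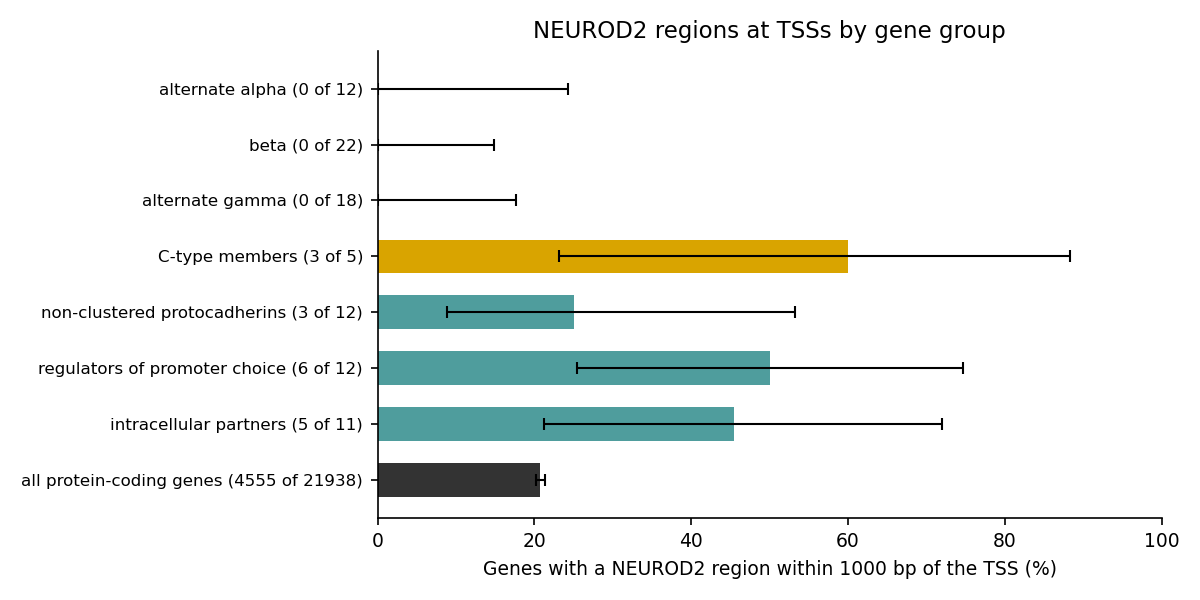
Percent of genes with a region of at least 2 antibodies within 1000 bp of the TSS, for the alternate genes of each subcluster, the C-type genes, the related lists and all protein-coding genes. Error bars are Wilson intervals at 95% and show counting error alone; the alternate genes stand at 0 of 12, 0 of 22 and 0 of 18, the C-type genes at 3 of 5, and all protein-coding genes at 20.8%.

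The tissue label could not be checked with these files, since a peak is not expression. Loci of cortical projection neurons and of interneurons are given as values only. A region stood within 1000 bp of the TSS of Nhlh2, Tbr1, Cux1 and Neurod6 and not of Fezf2 or Bcl11b. None stood within 1000 bp of the TSS of Gad1, Dlx2, Npy, Calb2 or Gsx2. These calls depend on that window. The nearest region to the Fezf2 TSS lay 2845 bp from it. Bcl11b had a peak of ab1 at its TSS and 4 regions within the gene. Gad1 held 1 region within the gene, while Dlx2, Npy, Calb2 and Gsx2 held 0. The study had itself picked Nhlh2 as a bound control and Fezf2, Bcl11b and Cux1 as targets. It had picked the interneuron genes as genes not identified as targets in these same libraries. By quantitative PCR it reported binding at the promoters of Fezf2 and Bcl11b and a slight enrichment at Gsx2. The values given here are therefore not independent evidence of the tissue.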

How the data were processed

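ChIP-Seq libraries of E14.5 BALB/c cortex were made with 3 NEUROD2 antibodies, 1 library each. The authors mapped single end reads to mm10 with Bowtie, removed PCR duplicates and multiply mapping reads, and ran MACS on each antibody with the GFP library of matching host as control. The deposited files give peak positions and a score, 10 times the −log10 p-value, whose lowest value in ab1 is 50, the caller's cutoff. The deposited score is neither scaled between libraries nor corrected for depth. The peak lists hold no read counts, and library totals were not used here. The GFP libraries entered only as controls of the authors' calls.

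Positions were converted to count from 1. Peaks overlapping by at least 1 bp were merged, regions with at least 2 antibodies were kept, and the midpoint was placed on GENCODE M21 with the longest transcript of each gene, on chromosomes 1 to 19, X and Y. A peak or region was at a TSS when its midpoint lay within 1000 bp. Motifs and words of 50 bases were counted in the GRCm38 reference, which is of another strain. Calculations used Python 3.11.15, numpy 2.4.6 and matplotlib 3.10.9 and were tested on simulated data (5 of 5 checks passed). Shares have 95% Wilson intervals, which cover counting error only. No test was made, since there is a single condition.

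Members and lists were chosen with earlier results of these data known. Named genes are members with a TSS peak, the C-type genes, the first and last of each subcluster, members nearest to the 5 highest peaks of each antibody, other protein-coding genes of the window with a TSS peak, and list genes with a region at the TSS. Others were named after their values were seen (Pcdha2, Pcdhb20, Slc25a2, Taf7, Diaph1, antisense transcripts and list genes without a region). An item among the neuronal loci is not reported here. The alternatives tried were other score thresholds, overlaps, flanks, TSS windows, transcripts, antibody sets and motif windows.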

Additional observations from a re-analysis of the deposited data

How the results depend on the processing

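Of 42 alternatives to 9 counts, 26 stayed within 1.5 times. Pcdhac1, Pcdhac2 and Pcdhgc3 stayed the members with a TSS peak of ab1 and of ab2 at 2000 bp, with all annotated transcripts and with any overlap, while 500 bp lost Pcdhac2. With a score of at least 100, regions in the locus fell from 13 to 5 (regions 4, 5, 10, 11 and 12), peaks of ab2 from 13 to 7, peaks of ab3 from 2 to 1, and members with a TSS peak of ab2 from 3 to 0, since all 3 of these peaks score under 100. With all 3 antibodies required, 2 regions and 0 members with a region at the TSS were left. Leaving out an antibody in turn gave 2 to 13 regions and 0 to 3 members with a region at the TSS. Without ab1 or without ab2 these were 2 and 0. The 0 members follow from the rule of at least 2 antibodies, as ab3 had no peak at a member TSS, so the calls at the C-type promoters rest on ab1 and ab2 together. Without the 50 kb flanks 9 peaks of ab1, 8 of ab2, 0 of ab3 and 8 regions remained, since regions 9 to 13 lie past the last gamma gene. Regions with the extended E-box numbered 5 in 200 bp, 11 over the whole region and 2 in 100 bp. No paired analysis was possible because there is a single condition with 1 library per antibody. Peak lists do not show signal under the caller's threshold, which limits every statement on genes without a peak.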
